A study of Mus musculus with 27 samples.

Results

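The pyruvate dehydrogenase complex and the enzymes that regulate it were followed through mouse aorta and its cells. The 10 genes were 3 catalytic subunits (Pdha1, Pdhb and Dlat), the 4 pyruvate dehydrogenase kinases (Pdk1, Pdk2, Pdk3 and Pdk4) and the phosphatase genes Pdp1, Pdp2 and Pdpr. They are 10 of the 42375 named rows of the bulk count tables and 10 of the 32285 features of the single-cell matrices. The group was chosen by a measured value: Pdpr differed between TKO and Cre in non-stripped aorta, and the other members were taken as its partners. The members' values in that contrast are therefore given as a description, with no p, and its counts of calls only as background.

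Every one of the 27 samples came from C57BL/6-background mice infused for 28 days with angiotensin II (Ang II), which constricts vessels. The genotypes are labelled Cre and TKO. The 23 bulk libraries form 4 tables. In the first, non-stripped aorta is represented by 3 Cre and 3 TKO libraries; in the second, stripped aorta by 4 and 2; in the third, fibroblasts isolated from aorta by 3 and 3. The fourth holds non-stripped aorta of TKO mice that also received IgG (3) or the anti-IL-9 antibody IL9mAb (2). Digested non-stripped aorta gave a further 4 single-cell libraries, 2 of each genotype. The labels define neither Cre nor TKO, nor the promoter that drives Cre, the age or sex of the mice, or what stripping removed. The series is titled for KLF10 and IL-9 in CD4+ T cells, and nothing in it says that a member of the complex was targeted. Nothing says either that each sample is a separate mouse, so p-values measure the spread between these samples, which may be technical.

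The pyruvate dehydrogenase complex sits in mitochondria and turns pyruvate into acetyl-CoA, the step that commits glucose carbon to oxidation or to fat synthesis. Pdha1 and Pdhb encode the subunits of E1, which decarboxylates pyruvate, and Dlat encodes E2, which carries the acetyl group to coenzyme A. The kinases phosphorylate E1 and switch the complex off. Pdk4 is induced by fasting, fatty acids and glucocorticoids, mainly in muscle, heart and fat, Pdk1 is induced by hypoxia, and Pdk2 is widely expressed. The phosphatases Pdp1, which needs calcium, and Pdp2 switch the complex back on, and Pdpr encodes a regulatory subunit of the phosphatase.

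Pdpr lies at chr8:111094630-111137074, plus strand, and Pdk4 at chr6:5483351-5496309, minus strand (GRCm38, GENCODE vM21). The sequences upstream of both are shown, because Pdpr chose the group and Pdk4 was its most variable kinase between tissues. They are RefSeq sequences of build GRCm38.p6, trimmed to bases outside annotated exons, at chr8:111094495-111094608 (plus strand) and chr6:5496310-5496528 (minus strand). Capitals mark matches on either strand to the E-box CACGTG (which contains the hypoxia response core ACGTG), to the GC box GGGCGG, or to the box named after its letters CCAAT.
Pdpr: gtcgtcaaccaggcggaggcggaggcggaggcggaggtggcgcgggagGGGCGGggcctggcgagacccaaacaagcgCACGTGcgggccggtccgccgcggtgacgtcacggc
Pdk4: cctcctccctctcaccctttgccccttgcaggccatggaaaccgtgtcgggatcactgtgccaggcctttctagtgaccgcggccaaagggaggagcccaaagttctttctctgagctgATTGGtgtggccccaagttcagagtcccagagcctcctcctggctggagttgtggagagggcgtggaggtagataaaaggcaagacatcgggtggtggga
Windows of 250 bases before a RefSeq start were searched on both strands for these motifs and for the nuclear receptor site AGGTCA, the FOXO site GTAAACA and the TATA box TATAAA. Members had windows for 9 genes, and Pdp1 had none. Members are counted per gene, with a match in any window of the gene, while the shares of all are per window. Pdk1 and Pdk2 each had a further window, which held no match. CACGTG stood in the windows of Pdpr, Pdp2 and Pdk2, 3 of 9, against 6.02% of all 32851 windows. ACGTG stood in 5 of 9 (16.6% of all), CCAAT in 5 of 9 (33.8%) and GGGCGG in 6 of 9 (32.7%). The nuclear receptor, FOXO and TATA box letters were in 0 of the 9, and in 14%, 3.17% and 12.4% of all windows. A match is a description of letters, not a bound site.

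Bulk libraries held between 17179257 and 38633457 counts. Non-stripped aorta was rich in fat: Ucp1, the uncoupling protein that marks brown adipocytes, was 7106, 5586 and 4642 CPM (counts scaled to library size with TMM factors) in Cre and 4307, 5878 and 5058 in TKO. It was 21.9, 99.2, 109.6 and 97.3 CPM in stripped Cre and 364 and 401.7 in stripped TKO, and at most 1.62 CPM in fibroblasts. Pdgfra, which marks fibroblasts, was 521 to 682 CPM in the fibroblast libraries, and Myh11, a smooth muscle myosin, was 1153, 1397, 1049 and 1154 CPM in stripped Cre. The skeletal muscle actin Acta1 was at 99.1, 376 and 210.1 CPM in non-stripped Cre and 1063, 1085 and 3821 in TKO. Klf10 had 822, 696 and 0 counts in the 3 non-stripped TKO libraries, so 1 of these 3 stood apart in the gene the title names. Replicates 1 to 3 of Cre had 1049, 943 and 1400.

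Levels of different members were compared per kb of exon, as mean CPM per kb (an RPKM scaled with the same factors). Pdha1 had the highest mean in all 8 bulk groups, at 611 CPM per kb in non-stripped Cre, 65.6 in stripped Cre and 66.8 in Cre fibroblasts. Pdk4 was a close second in non-stripped Cre, at 591 CPM per kb (SDs of 57.5 for Pdha1 and 57.0 for Pdk4). With the antibody the means were 228 and 226 (SDs of 62.2 and 45.7). In non-stripped TKO replicate 3 Pdk4 (761) was above Pdha1 (613). Pdk4 was at 18.4 in stripped Cre and 2.96 in Cre fibroblasts. The order of the kinases per kb turned over with the tissue. In non-stripped Cre it was Pdk4, Pdk2 (102), Pdk1 (17.9) and Pdk3 (0.986). In stripped Cre Pdk4 and Pdk2 were close (18.4 and 16.7, with SDs of 7.5 and 0.816), followed by Pdk3 (6.72) and Pdk1 (2.56). In Cre fibroblasts Pdk3 led (8.29), followed by Pdk4, Pdk2 (1.77) and Pdk1 (0.805).

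The phosphatase genes were ordered differently too. Pdp2 led in non-stripped Cre (15.4 CPM per kb, with Pdpr at 3.97 and Pdp1 at 2.1), Pdp1 led in stripped Cre (7.31, with Pdp2 at 1.87 and Pdpr at 0.642), and Pdpr led in Cre fibroblasts (4.17, with Pdp1 at 3.02 and Pdp2 at 1.44). The 4 tables were scaled separately and no test between tables was made. In bulk tissue, fewer cells of a type and less RNA per cell cannot be told apart.

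**Figure D1:**
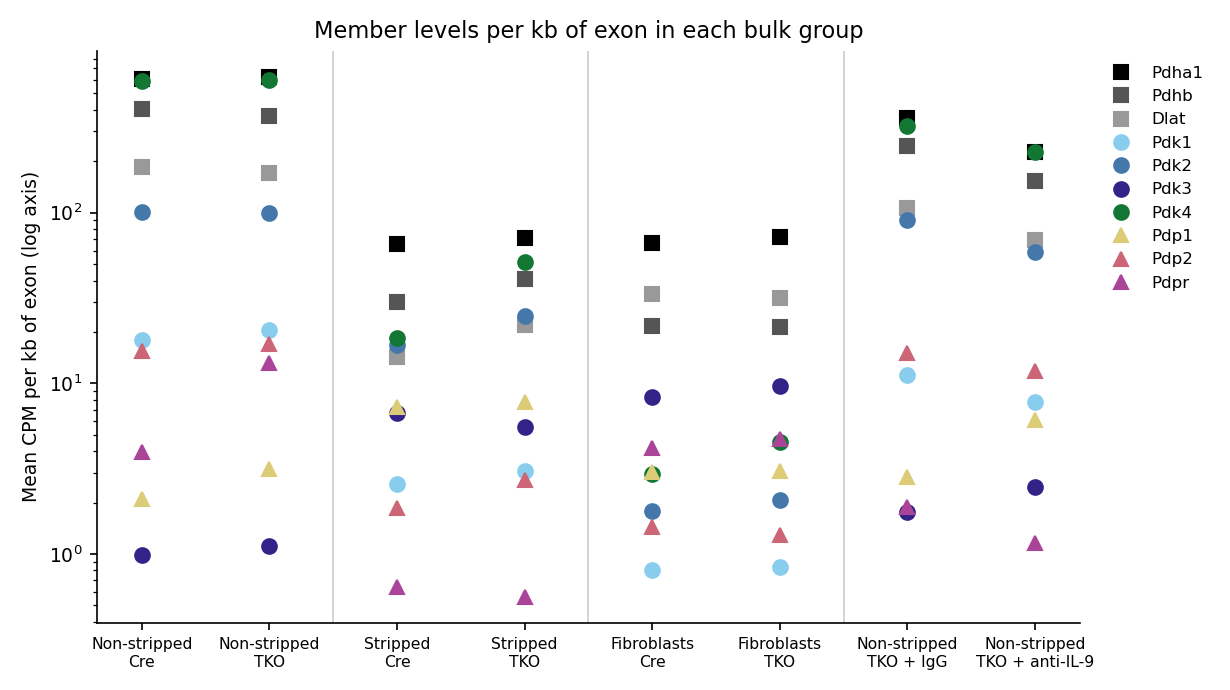
Mean level of each member per kb of exon (vertical log axis, CPM per kb) in the 8 bulk groups (horizontal axis), with squares for catalytic subunits, circles for kinases and triangles for phosphatase genes; vertical lines separate the 4 count tables. Pdha1 has the highest mean in every group, while Pdk4 (green) lies at 591 CPM per kb in non-stripped Cre aorta and at 2.96 in Cre fibroblasts.

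Non-stripped aorta asks what the genotype does in the whole vessel with its surroundings. Pdpr was 16.4, 21.5 and 22 CPM in the 3 Cre libraries (423, 404 and 469 counts) and 59.5, 65.6 and 73.7 CPM in the 3 TKO libraries (1185, 1292 and 1270 counts). Every TKO library was above every Cre library, including the one without Klf10 counts, at 73.7 CPM. The means were 19.95 ± 3.1 CPM and 66.3 ± 7.15 CPM (SD, n = 3 each), a log2 fold change of 1.73 ± 0.14 (SE). Without 1 library at a time it ran from 1.61 to 1.81.

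The stripped and fibroblast tables gave no such separation of the genotypes. In stripped aorta Pdpr was the lowest member per kb in both genotypes, at 3.44, 2.76, 3.78 and 2.94 CPM in Cre and 3.0 and 2.64 in TKO, and the groups overlapped (log2 fold change −0.19 ± 0.24, adjusted p = 0.754, edgeR's quasi-likelihood test with Benjamini-Hochberg adjustment, as for every adjusted p below). In fibroblasts it was 20.98, 18.4 and 23.5 CPM in Cre and 22.3, 24.9 and 23.6 in TKO, again overlapping (0.17 ± 0.11, adjusted p = 0.563). The TKO aortas given IgG were also non-stripped, and there Pdpr was 8.59, 8.85 and 11.02 CPM, below all 6 libraries of the first non-stripped table. Those 2 tables were scaled separately and this difference was not tested.

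**Figure D2:**
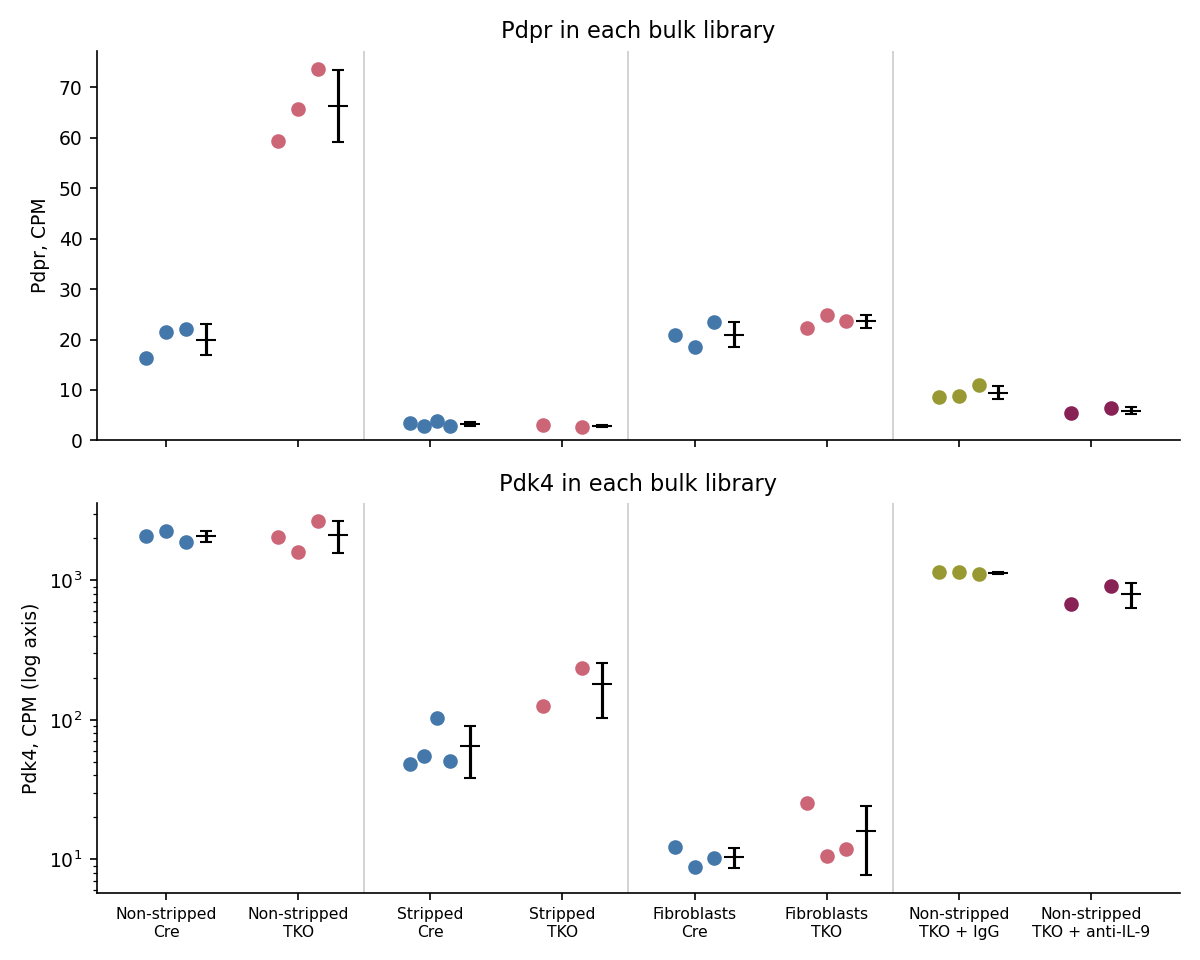
Level of Pdpr (top, linear axis) and Pdk4 (bottom, log axis) in CPM in each of the 23 bulk libraries, by group; points are libraries, black bars the mean and SD, and vertical lines separate the 4 count tables. The 3 non-stripped TKO libraries stand at 59.5 to 73.7 CPM of Pdpr, while Pdk4 spans from 8.75 CPM in fibroblasts to 2671 CPM in non-stripped aorta.

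Neighbouring genes are given as a description. Nothing is read from their distance to Pdpr, which was chosen by its value in this contrast. Of the 28 other genes tested that start within 1 Mb of Pdpr, 9 had a positive and 19 a negative log2 fold change. Their median was −0.052 and their range −0.57 to 0.48. The median of all genes tested was −0.018. On the side before Pdpr the nearest were Aars (0.11 ± 0.10), Ddx19b (0.32 ± 0.12) and Ddx19a (−0.05 ± 0.10). On the far side they were 9430091E24Rik (0.41 ± 0.16), Glg1 (0.19 ± 0.09) and Rfwd3 (0.025 ± 0.09). 9430091E24Rik is a processed transcript on the opposite strand that shares 8189 bases of span with Pdpr, and without a stated strand setting their reads cannot be told apart. Pdha1 (with Map3k15) and Pdk2 (with Gm11513) also overlap a gene on the other strand.

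**Figure D3:**
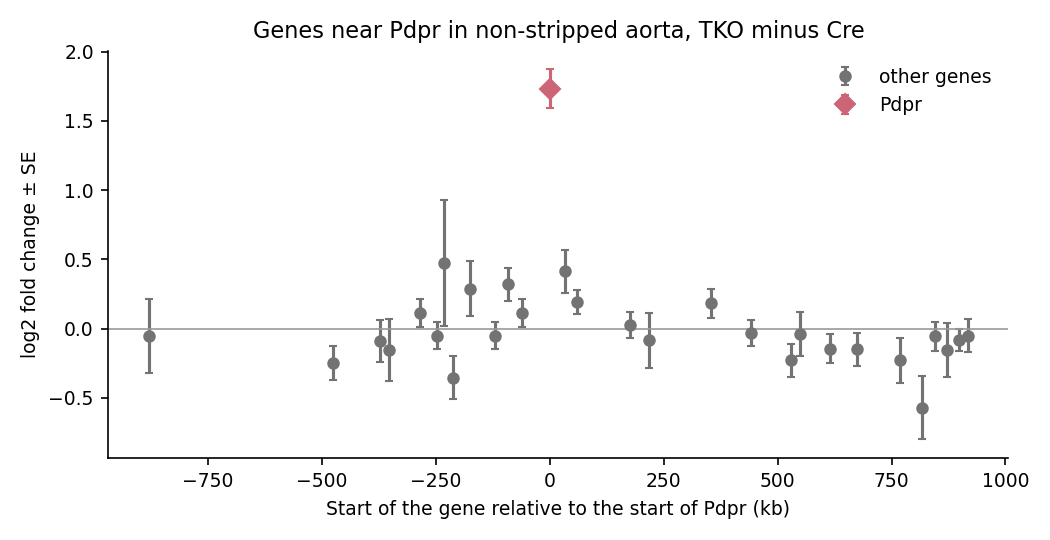
Log2 fold change, TKO minus Cre, in non-stripped aorta (vertical axis, with SE bars) of the genes that start within 1 Mb of Pdpr, against the distance of their start from that of Pdpr in kb (horizontal axis). Pdpr (diamond), chosen by its value in this contrast, stands at 1.73, and the 28 other genes (grey) lie between −0.57 and 0.48.

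Of the other members of the contrast that chose the group, 8 of 9 overlapped between genotypes. Pdha1 was 2368, 2437 and 2036 CPM in Cre and 2330.2, 2394 and 2289.7 in TKO. Pdhb was 1722, 1659 and 1338 CPM in Cre and 1470.5, 1457 and 1349 in TKO. Dlat was 947, 942 and 829 CPM in Cre and 878, 918 and 721 in TKO. These subunits of E1 and E2 were well expressed, and their log2 fold changes were 0.036 ± 0.12, −0.14 ± 0.13 and −0.11 ± 0.13. Pdk4 was 2083, 2274 and 1873 CPM against 2052, 1593 and 2671, with TKO libraries on both sides of the Cre range (0.02 ± 0.19). Pdk2 (−0.021 ± 0.11), Pdk1 (0.19 ± 0.11) and the scarce Pdk3 (0.17 ± 0.24) overlapped as well, as did Pdp2 (0.14 ± 0.11).

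Pdp1 was 9.45, 8.87 and 10.04 CPM in Cre and 10.8, 10.7 and 21.1 in TKO. The groups were apart by a narrow margin, and TKO replicate 3 was above the other two, at 21.1 CPM. Its log2 fold change was 0.58 ± 0.26 and 0.18 without that library, which also had the most Acta1 (3821 CPM). Skeletal muscle markers were positive for 16 of 16 genes and summed to 527 to 1927 CPM in Cre and 5613 to 22660.1 in TKO. The part of muscle RNA in the Pdp1 and Pdpr values was not tested. Of the 10 members, 1 was called (Pdpr), beside 0.119% of the 15162 genes tested (18 genes, 9 higher and 9 lower). The choice of Pdpr fixed this count, and nothing is read from it. The groups were apart with TKO higher for 2 members (Pdpr and Pdp1; 14.8% of all genes) and with TKO lower for 0 (10.7% of all genes). The members' median log2 fold change was 0.087, beside −0.018 over all genes.

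Genes around the complex are given by their values in that contrast as well. Of the other complex subunits, Dld (E3) and Pdhx (the E3-binding protein) had log2 fold changes of −0.087 ± 0.12 and −0.15 ± 0.12. The median log2 fold change was 0.014 over 17 genes of pyruvate entry and competing fates, −0.16 over 17 of the TCA cycle, 0.19 over 26 of glycolysis and 0.26 over 19 targets that Pdk4 shares (PPAR, FOXO and glucocorticoid).

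Stripped aorta asks about the genotype in the vessel after stripping. Pdk4, Pdk2 and Dlat were higher in both TKO libraries than in all 4 Cre libraries, but no member passed the test. Pdk4, the fasting-induced kinase, was 48.4, 54.97, 104 and 50.9 CPM in Cre and 125 and 234 in TKO, and the lowest TKO library was close to the highest Cre library. The means were 64.5 ± 26.3 CPM (SD, n = 4) and 179.7 ± 77.2 CPM (SD, n = 2), a log2 fold change of 1.48 ± 0.35 (adjusted p = 0.202). Without 1 library at a time it ran from 0.96 to 1.86, lowest without TKO replicate 2.

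Pdk2 was 52.2, 49.8, 52.9 and 56.02 CPM in Cre and 82.9 and 72.97 in TKO, tight within each group and apart between them (0.56 ± 0.09, adjusted p = 0.112). Dlat, the E2 subunit, was 53.6, 73.8, 72.5 and 79.04 CPM against 102 and 112 (0.62 ± 0.15, adjusted p = 0.209). DESeq2 called these 3 genes, with adjusted p of 0.00126 for Pdk4, 0.00139 for Pdk2 and 0.0297 for Dlat.

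The E1 subunits showed no clear step: Pdha1 was 210.3, 262, 244 and 264 CPM in Cre and 252 and 281 in TKO (0.12 ± 0.13), with overlap. Pdhb was 83.6, 115, 114 and 150.4 CPM in Cre and 139.99 and 175 in TKO, also with overlap (0.44 ± 0.22, adjusted p = 0.419). Pdp2 was higher in TKO without overlap, at 7.65, 11.7, 8.85 and 14.4 against 16.1 and 14.9 CPM (0.54 ± 0.25, adjusted p = 0.397), and Pdk3 lower without overlap, at 17.4, 16.6, 16.1 and 18.7 against 15.5 and 13 CPM (−0.28 ± 0.13, adjusted p = 0.401). Pdk1 (0.26 ± 0.31) and Pdp1 (0.08 ± 0.14) overlapped.

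In all, 0 of 10 members were called in stripped aorta, beside 0.024% of 16688 genes, and 3 were at an unadjusted p under 0.05, beside 2295 genes. TKO was higher without overlap for 4 members (12% of all genes) and lower for 1 (11.6% of all genes). The members' median log2 fold change was 0.35, beside 0.0013 over all genes. Lists around them leaned the same way without a call: 17 of 17 TCA cycle genes were positive (median 0.43), as were 18 of 19 targets shared with Pdk4 (median 0.79). Glycolysis was at 0.059, with 15 of 26 positive.

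Fat markers were at higher levels in TKO beside these values, with 0 of either list called. All 10 white adipocyte markers were positive (median 1.12), with a summed level of 1460.1 to 3243 CPM in Cre and 5594 to 5900.3 in TKO. Of 9 brown adipocyte markers 7 were positive (median 1.63, summed 427 to 590.5 and 814 to 1171 CPM), and none of either list was at 0. Adipoq, the adipocyte hormone adiponectin, was 111, 161, 155 and 235 CPM in Cre and 399 and 271 in TKO. The smooth muscle contractile list was negative for 8 of 8 genes (median −0.58, summed 6579.8 to 7672 and 3988 to 6009.7 CPM). Heart muscle, which is rich in Pdk4, differed between libraries too: the 10 cardiac muscle markers summed to 135, 137, 4604 and 779 CPM in Cre and 279 and 78.7 in TKO. The Cre library with the most (replicate 3) was the one with the most Pdk4, while replicate 4, next in cardiac markers, had 50.9 CPM. The TKO library with fewer cardiac markers (78.7 CPM) had more Pdk4 (234 against 125 CPM). The part of fat and heart RNA in the Pdk4, Pdk2 and Dlat values was not tested.

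Isolated fibroblasts ask whether the genotype acts in that cell type, and no member was called in them. Fat markers were scarce: the white adipocyte list summed to 58.1 to 70.1 CPM in Cre and 58.6 to 63.7 in TKO. Pdha1 was 259, 247 and 243 CPM in Cre and 274, 268 and 262 in TKO, apart by a small margin (0.10 ± 0.07, adjusted p = 0.561). Pdhb was 88.1, 85.4 and 77.6 against 88.3, 77.5 and 80.7 CPM (−0.027 ± 0.08) and Dlat 173, 167 and 152 against 169, 144 and 153 CPM (−0.078 ± 0.08), both overlapping.

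Pdk3 had the highest level per kb of the kinases in these libraries. It was 21.4, 20.5 and 21.8 CPM in Cre and 23.5, 26.5 and 24.3 in TKO, without overlap (0.22 ± 0.09, adjusted p = 0.367). Pdk4 was 12.2, 8.75 and 10.2 against 25.5, 10.6 and 11.8 CPM (0.62 ± 0.32, adjusted p = 0.486), with TKO replicate 1 above the other five libraries. That library also had the most Acta1 of the 6 (393 CPM against 91.4 to 180.5), and without it the Pdk4 log2 fold change was 0.11. The skeletal muscle list was positive for 15 of 16 genes, 0 called, and summed to 756 to 1195 CPM in Cre and 557 to 2336 in TKO. The part of muscle RNA in it was not tested. Pdp2 was lower in TKO without overlap, at 8.08, 8.03 and 8.46 against 7.14, 7.88 and 6.92 CPM (−0.16 ± 0.12, adjusted p = 0.611). Pdk1 (0.053 ± 0.21), Pdk2 (0.23 ± 0.24) and Pdp1 (0.027 ± 0.10) overlapped.

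Of 10 members 0 were called, beside 0.0638% of 15673 genes, and 1 (Pdk3) was at an unadjusted p under 0.05, beside 1898 genes. DESeq2 also called 0 members. TKO was higher without overlap for 2 members (8.86% of all genes) and lower for 1 (8.43% of all genes). The members' median was 0.079, beside 0.0079 over all genes. None of the surrounding lists held a call, with medians between −0.13 and 0.12 for the 7 metabolic and regulator lists.

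The antibody comparison asks what blocking IL-9 does in non-stripped TKO aorta. Of the 10 members, 4 passed the test: Pdpr, Pdk1 and Dlat fell and Pdp1 rose. This table differed widely, with 32.1% of its 16463 genes called (3462 higher and 1815 lower), and the 4 of 10 members are read against that share. The members' median log2 fold change was −0.56, beside −0.014 over all genes. The 2 antibody libraries were lower than all 3 IgG libraries for 8 members (27.8% of all genes) and higher for 1 (Pdp1; 32.1% of all genes).

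Pdp1, the calcium-dependent phosphatase, was 14.3, 12.7 and 11.3 CPM with IgG and 29.9 and 25.3 with the antibody. Both antibody libraries stood clear of the IgG range (1.11 ± 0.15, adjusted p = 0.00168), and the call held without any 1 library (log2 fold change 0.97 to 1.22, adjusted p 0.0034 to 0.0153). Pdpr went the other way, from 8.59, 8.85 and 11.02 CPM to 5.4 and 6.33 (−0.69 ± 0.20, adjusted p = 0.0388). Pdp2 was 83.4, 80.5 and 92.5 against 55.4 and 78.7 CPM, a narrow gap (−0.35 ± 0.17, adjusted p = 0.16).

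Among the kinases Pdk1 fell from 84.6, 83.2 and 92.1 CPM to 52.96 and 67.7 (−0.52 ± 0.14, adjusted p = 0.03). Pdk4 was 1151, 1142 and 1108 CPM with IgG and 681 and 908 with the antibody, without overlap and short of the threshold (−0.51 ± 0.19, adjusted p = 0.0838). Pdk2 was 273, 275 and 306.5 against 134 and 239.8 CPM, and its antibody libraries lay far from each other (−0.61 ± 0.25, adjusted p = 0.103). Pdk3 overlapped, at 3.71, 5.37 and 4.45 against 7.52 and 5.19 CPM (0.50 ± 0.27, adjusted p = 0.197).

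The 3 catalytic subunits were lower with the antibody in both libraries, and 1 of them, Dlat, passed the test. Dlat fell from 501, 496 and 571 CPM to 289 and 391 (−0.62 ± 0.19, adjusted p = 0.042). Pdha1 was 1289.9, 1213 and 1518 against 687 and 1015 CPM (−0.65 ± 0.23, adjusted p = 0.072) and Pdhb 992, 802 and 1068 against 494 and 695 CPM (−0.68 ± 0.23, adjusted p = 0.057), both without overlap and short of the threshold. In each of these 3 genes antibody replicate 1 was the lowest library, and it also had the least brown fat RNA, with brown adipocyte markers summing to 3164 and 6420.1 CPM in the antibody libraries and 6492, 6792 and 7952 with IgG. The calls for Pdk1 and Dlat were lost without any one IgG library and without antibody replicate 1, and that for Pdpr without any 1 of the 5 libraries (adjusted p 0.0543 to 0.143). Without antibody replicate 2, 8 members were called, all but Pdpr and Pdk3. Under DESeq2, and likewise with no filter on low counts, 8 were called, all but Pdp2 and Pdk3. With 1 library left out the log2 fold changes were Pdp2 −0.63 to −0.14, Pdk2 −1.09 to −0.26, Pdha1 −0.97 to −0.42, Pdk4 −0.74 to −0.34 and Pdk3 0.18 to 0.73. In each of these 5 genes the value was nearest 0 without antibody replicate 1 and farthest from it without antibody replicate 2.

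Markers of other cell types changed beside these values, some by more than any member. Their counts of calls stand beside the 32.1% of all genes called in this table. All 12 of 12 neuronal markers rose (a list chosen after their values were seen), and their sum went from 428 to 949 CPM with IgG to 7018 to 7450.4 with the antibody. Th, the tyrosine hydroxylase of sympathetic neurons, was 105, 40.6 and 57.5 CPM and 783 and 732. Of 10 white adipocyte markers 6 fell and 0 rose, among them Plin4 (745 to 347 CPM, adjusted p = 0.00533), Adipoq (805 to 412 CPM, adjusted p = 0.00859) and Lipe (1337 to 708 CPM, adjusted p = 0.00885). Their sum was 15885 to 17719 and 8131 to 11089.5 CPM. Of 16 skeletal muscle markers 15 rose (summed 17.1 to 62.3 and 265 to 343 CPM), led by Ryr1 (2.25 ± 0.23, adjusted p = 4.71e-04). Of 8 smooth muscle genes 5 rose, led by Tagln (1.24 ± 0.18, adjusted p = 0.00214). Of 9 brown adipocyte markers 2 fell (Ppara and Otop1), and of 10 cardiac markers 2 rose (Ryr2 and Myl2) and 3 fell. None of these lists had a gene at 0 in every library. The part of nerve, fat and muscle RNA in the members' values was not tested.

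For the pathway around the complex, the counts of calls stand beside the 32.1% of all genes called in this table (3462 higher and 1815 lower). Of pyruvate entry and competing fates 5 of 18 genes fell and 0 rose, among them Pcx, pyruvate carboxylase (−1.19 ± 0.21, adjusted p = 0.00596), Mpc1, a subunit of the mitochondrial pyruvate carrier (−0.78 ± 0.19, adjusted p = 0.0213), and Ldhd (−0.68 ± 0.21, adjusted p = 0.0471). Of the TCA cycle and citrate enzymes 3 of 17 fell (Suclg2 at −0.68 ± 0.16, Acly at −0.80 ± 0.22 and Idh2 at −0.67 ± 0.20) and 0 rose, with a median of −0.60. Of glycolysis 6 rose and 4 fell of 26. The 3 with the smallest adjusted p were Aldoc (2.35 ± 0.15, adjusted p = 1.72e-04), Hk1 (1.82 ± 0.12, adjusted p = 1.77e-04) and Eno2 (2.94 ± 0.22, adjusted p = 1.85e-04), of which Aldoc and Eno2 are the brain forms of aldolase and enolase.

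Of the transcription regulators of Pdk4 and Pdk1, 7 of 15 fell and 1 rose, led by the glucocorticoid receptor Nr3c1 (−0.59 ± 0.12, adjusted p = 0.00928), Ppara (−0.68 ± 0.14, adjusted p = 0.0105) and Epas1 (−0.73 ± 0.15, adjusted p = 0.0106). Of the targets shared with Pdk4, 10 of 19 fell and 2 rose, led by Fkbp5 (−1.05 ± 0.16, adjusted p = 0.00276), Angptl4 (−1.01 ± 0.16, adjusted p = 0.00354) and Ucp3 (−0.87 ± 0.15, adjusted p = 0.00436). Of the hypoxia targets shared with Pdk1, 2 rose (Ndrg1 at 0.51 ± 0.12 and Slc2a1 at 0.44 ± 0.13) and 1 fell (Vegfa at −0.53 ± 0.15) of 14. Among the related 2-oxoacid dehydrogenases and lipoylation genes 2 rose (Ogdhl at 2.89 ± 0.24 and Amt at 1.04 ± 0.15, adjusted p = 2.33e-04 and 0.00212) and 3 fell of 20, Dbt the first of these (−0.66 ± 0.18, adjusted p = 0.0319). Dld and Pdhx were not called (−0.51 ± 0.22 and −0.45 ± 0.19). The counts of calls in these lists stand beside the same 32.1% of all genes.

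**Figure D4:**
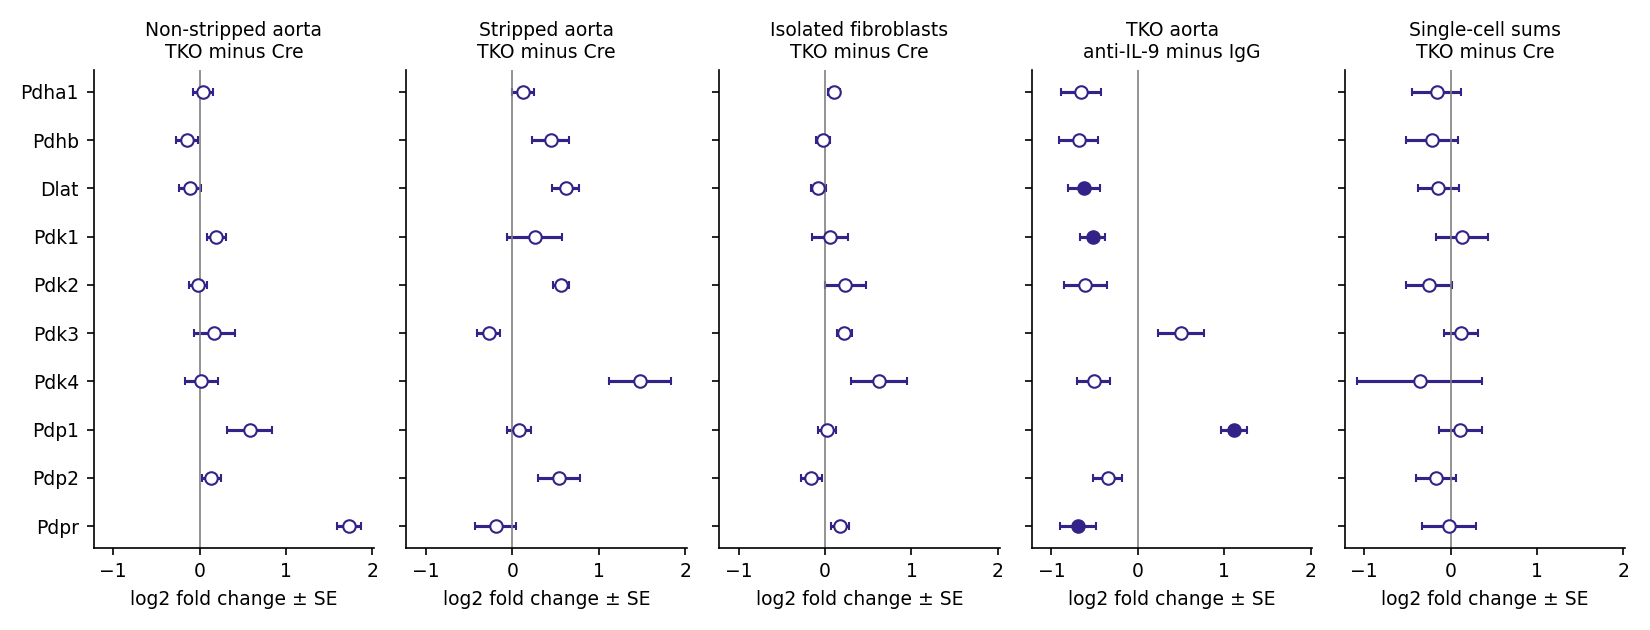
Log2 fold change (horizontal axis, with SE bars) of each member in the 4 bulk comparisons and in the single-cell sums over all kept cells; filled points passed edgeR's test in the anti-IL-9 table, no member passed in stripped aorta, fibroblasts or the single-cell sums, and the non-stripped panel chose the group and carries no mark. Pdpr stands at 1.73 in non-stripped aorta, Pdk4 at 1.48 in stripped aorta, and Pdp1 at 1.11 with anti-IL-9.

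Single cells show which cells hold these transcripts. After filters 46511 cells were kept (14892 and 9129 Cre, 14943 and 7547 TKO) of 114998 barcodes, with median depths of 2546, 1607, 1539 and 1379 UMIs. Pairs of libraries shared 0.237% to 0.548% of the cells of the smaller one that passed the filters on genes, UMIs and mitochondrial share. Clusters were named from marker genes into 18 classes, with the members left out of the clustering, and 8374 cells stayed unnamed. The largest unnamed cluster, cluster 2 (3278 cells), scored highest for fibroblast-like markers, so the fibroblast-like class does not hold all such cells. Doublets were removed as the 6% of each library with the highest doublet score. Several clusters came mostly from 1 library: macrophage-like cluster 5 (96.0% Cre replicate 1) and B cell-like cluster 10 (98.9% Cre replicate 1) are examples, so class values rest partly on different clusters.

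Adipocyte-like cells were the richest class for Pdk4, Pdk2, Pdha1, Pdhb and Dlat by median CPM over the 4 libraries. There were 143 of them (22 and 60 Cre, 19 and 42 TKO). Pdk4 was 497, 1068, 408 and 791 CPM in them in Cre replicates 1 and 2 and TKO replicates 1 and 2 (76, 178, 18 and 89 UMIs), and these 143 cells held 361 of the 1158 Pdk4 UMIs of all kept cells. Endothelial-like cells had 9.04 to 29.2 CPM of Pdk4, fibroblast-like cells 8.52 to 23.5 and smooth muscle-like cells 7.02 to 19.3. Erythroid-like cells, which should lack it, had 1.58 to 14.6 CPM, so values at that height cannot be told from free RNA. Pdha1 was 353, 804, 227 and 774 CPM and Pdhb 307.1, 689.8, 227 and 596 CPM in adipocyte-like cells, in the same library order. Mesothelial-like cells came second for Pdha1 (143 to 164 CPM) and fibroblast-like cells had 86.9 to 96.7.

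Pdk1, Pdk3 and Pdp1 peaked elsewhere. Pdk1 was highest by median in T cell-like cells, at 41.1, 42.6, 55.8 and 37.8 CPM (91, 92, 106 and 40 UMIs). Fibroblast-like cells had 7.52 to 17.04 CPM, and adipocyte-like cells 0 to 88.9 CPM on 20 UMIs. Endothelial-like cluster 12 was at 46.3 CPM (111 UMIs), beside 42.0 and 47.6 in T cell-like clusters 6 and 8. Pdp1 led in mesothelial-like cells (27.4 to 51.5 CPM, with 18.4 to 21.2 in smooth muscle-like and 14.4 to 25.9 in fibroblast-like cells). Pdk3 was highest in NK cell-like cells by median on 7 UMIs, and was 17.1 to 29.9 CPM in dendritic cell-like cells. It was 16.3 to 22.1 CPM in smooth muscle-like cells, and 0 to 22.7 CPM on 3 UMIs in all in adipocyte-like cells. In fibroblast-like cells Pdk3 was 7.71 to 13.2 CPM. They held 168 UMIs of Pdk3, beside 188 of Pdk2, 195 of Pdk1 and 202 of Pdk4. Erythroid-like cells had 8.75 to 13.5 CPM of Pdk3, 2.37 to 10.1 of Pdk2, 2.7 to 24.7 of Pdk1 and 1.58 to 14.6 of Pdk4. Values at that height cannot be told from free RNA, so fibroblast-like cells cannot show which kinase leads. The lead of Pdk3 in isolated fibroblasts was not seen in them, and the difference between the assays was not tested. Pdpr was at low levels in the larger classes: 9.49 to 13.97 CPM in lymphatic endothelial-like, 8.33 to 16.7 in T cell-like and 9.15 to 22.7 in mesothelial-like cells, against 1.35 to 10.9 in erythroid-like cells. Adipocyte-like cells ranked first for Pdpr and Pdp2 too, on 11 and 22 UMIs, too few to rank them firmly.

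**Figure D5:**
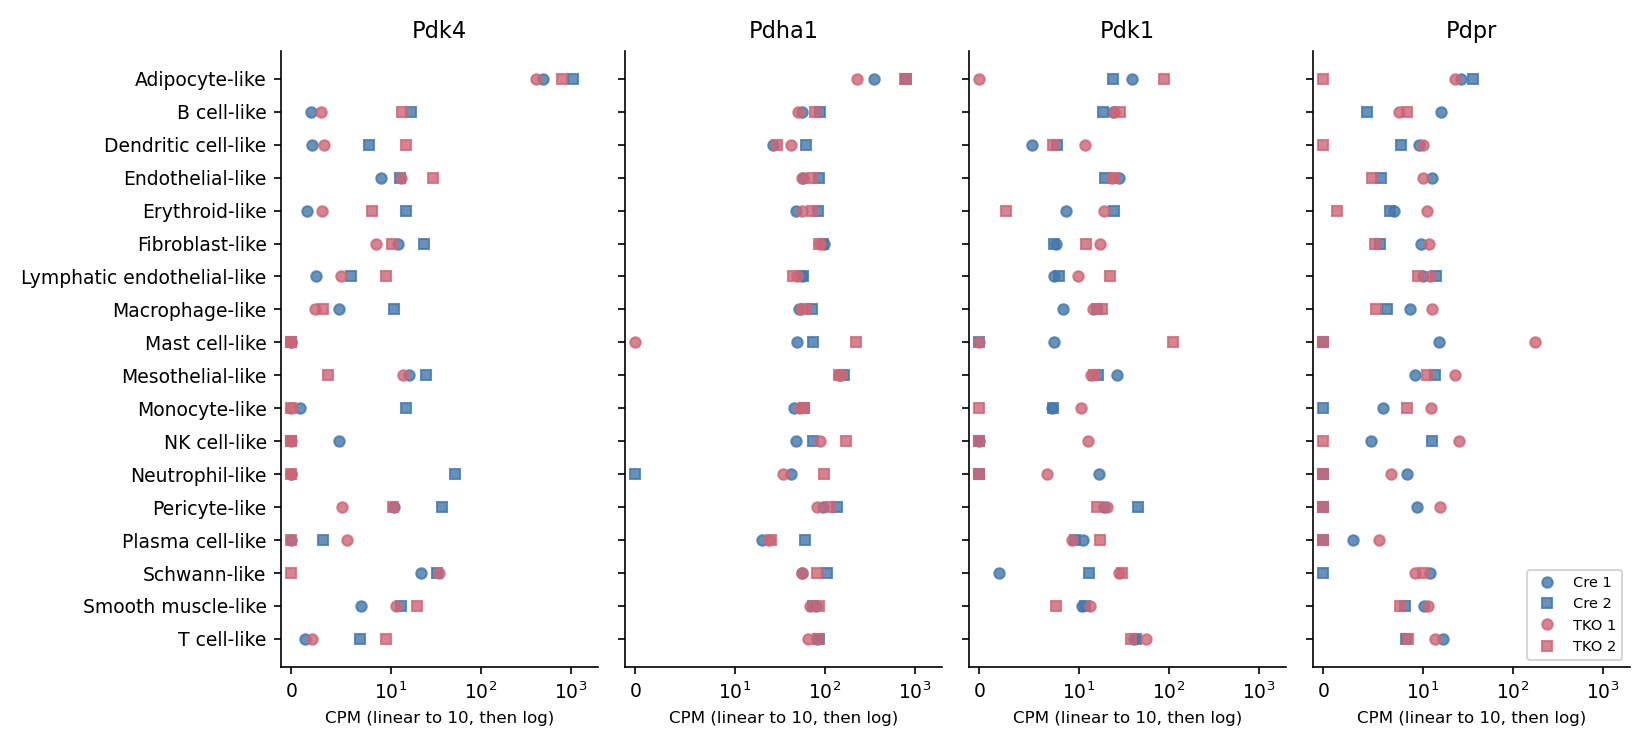
Level of Pdk4, Pdha1, Pdk1 and Pdpr (horizontal axis, CPM of summed UMIs, linear to 10 and log above) in each named single-cell class (rows); each point is 1 of the 4 libraries, blue for Cre and red for TKO. Pdk4 lies at 408 to 1068 CPM in adipocyte-like cells in every library and at most at 51.6 CPM in the other named classes. Pdpr lies at or under 36.0 CPM except for 1 point, the 175 CPM of mast cell-like cells in TKO replicate 1, which rests on 2 UMIs in 7 cells.

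Genotypes were compared on UMIs summed per library. Over all kept cells Pdpr was 9.33 and 7.93 CPM in Cre and 10.7 and 6.25 in TKO, with overlap (−0.016 ± 0.32, adjusted p = 1). Bulk non-stripped aorta had 1.73, and the difference between the assays was not tested. Pdk4 was 7.4 and 25.1 CPM in Cre and 6.41 and 19.03 in TKO. The second library of each genotype was high, and it also had more adipocyte-like cells (60 and 42 against 22 and 19). The part of fat RNA in the Pdk4 sums was not tested. By edgeR 0 of the 10 members were called in these sums, beside 0% of 15793 genes. No member was at an unadjusted p under 0.05, beside 327 genes, and DESeq2 called none of the members.

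Within the 13 classes with at least 50 cells in every library, 78 edgeR tests of members gave 0 calls, beside 0.0332% of all tests (34 of 102277). At an unadjusted p under 0.05 stood Pdk1 in fibroblast-like cells, at 7.46 and 8.0 CPM in Cre and 16.1 and 12.2 in TKO (0.91 ± 0.31, adjusted p = 0.515), and Pdk2 in macrophage-like cells, at 9.48 and 11.97 CPM in Cre and 4.24 and 6.53 in TKO (−1.02 ± 0.38, adjusted p = 0.983). Fibroblast-like clusters 16 and 28 came mostly from Cre replicate 1 (85.8% and 91%) and cluster 31 from TKO replicate 1 (79.5%). Cluster 1, 56.9% from TKO replicate 1, held 103 of the 195 Pdk1 UMIs of the class, at 18.2 CPM. The other fibroblast-like clusters were at 6.47 to 10.2 CPM. Unnamed cluster 2, which scored highest for fibroblast-like markers, lies outside the class and was at 11.2 CPM of Pdk1 (68 UMIs). It held 970 cells of Cre replicate 2, beside 619 of that library in the class. The part of cluster make-up in the Pdk1 value was not tested. In T cell-like cells, the lineage the title names, Pdpr was 16.5 and 9.17 CPM in Cre and 12.1 and 8.84 in TKO (−0.25 ± 0.43, adjusted p = 1) on 90 UMIs. Adipocyte-like cells were too few to test.

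Across the 23 bulk libraries the catalytic subunits varied together, and Pdk2, Pdp2 and Pdk1 went with them less closely. Values are Pearson r of log2(CPM + 1), each gene centred on its mean in each table. They are a description, since libraries share tissue and depth. Pdha1 and Pdhb moved together (r = 0.86), as did Pdha1 with Dlat (0.79) and with Dld (0.87), and Dlat with Dld (0.94). Pdk2 went with this block (0.75 with Pdha1) and with Pdk4 (0.71), while Pdk4 itself was at 0.43 with Pdha1 and 0.62 with Dlat. Pdp2 was at 0.65 with Pdha1, 0.78 with Pdhb and 0.75 with Dlat. Pdk1 was at 0.66, 0.72 and 0.59 with the same subunits, and at 0.80 with Pdp2. Pdp1 ran opposite to Pdha1 (−0.64) and with Pdk3 (0.65). Pdpr was near 0 with Pdk4 (0.06), Dlat (−0.02) and Pdhb (−0.02), and highest among the members with Pdha1 (0.28) and Pdk1 (0.27).

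Of 11400 genes compared, those most like Pdpr were Dpp8 (r = 0.94), Zc3h11a (0.91), Cnot1 (0.91), Mon2 (0.91) and D5Ertd579e (0.91). These r include the contrast that chose Pdpr, so they favour genes that share its gap, and nothing is read from them. Over the 17 libraries outside that table, the r of these genes was between 0.64 (Cnot1) and 0.88 (Mon2). The genes most like Pdpr over those 17 were Gypc (0.92), Ang (0.92), Morc2a (0.89), Fbxo9 (0.89) and Arhgef12 (0.88). Over all 23 libraries Gypc and Fbxo9 were at −0.26 and −0.27, and the others at 0.46 to 0.75. Dpp8, a dipeptidyl peptidase, went from 77.3 to 112 CPM on average in non-stripped aorta, the contrast that chose Pdpr. Its log2 fold change there was 0.54 ± 0.08 against 1.73 for Pdpr. Genes most like Pdk4 were Adck3 (0.80), Mcf2l (0.78), Lpin1 (0.77), Kank3 (0.76) and Sox17 (0.76), and r was 0.78 to 0.84 over the same 17. Lpin1, a phosphatidate phosphatase of fat and muscle, went from 36.1 to 68.7 CPM in stripped aorta (0.93 ± 0.16, adjusted p = 0.129) and fell with the antibody (−0.71 ± 0.16, adjusted p = 0.0155).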

How the data were processed

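The authors deposited bulk data as whole-number read counts by gene symbol. Build GRCm38, the aligner STAR 2.5.2b, featureCounts with Subread 1.5.2 and Trimmomatic 0.36 come from the submitters' processing notes. Neither strand setting nor annotation is given in the sources used here. The single-cell matrices hold deposited UMI counts per gene and barcode from 10x 3′ v3.1 libraries, per the labels' protocols. The row without a gene name (at most 0.0025% of counts) was dropped, and so was 1 column whose sample no label names. Stripped samples were grouped by tissue field, although their titles say otherwise.

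Each table was fitted alone with edgeR 4.0.16 (R 4.3.3): filterByExpr (minimum count 10), TMM factors, the quasi-likelihood test and Benjamini-Hochberg adjustment over all genes at 0.05. DESeq2 1.42.0 was an alternative. Errors are SE for log2 fold changes and SD for CPM. Single cells had to show 500 genes, 1000 UMIs and no more than 20% mitochondrial UMIs, and were clustered with scanpy 1.11.5 (2000 variable genes, 30 components, 15 neighbours), and summed per library. A class needs at least 3 detected markers. The members, gene lists and tests were chosen with earlier results of these data known. Genes named beyond the members were, per list, up to 3 with the smallest adjusted p in the stripped, fibroblast and anti-IL-9 tables. The 5 most like Pdpr and Pdk4 were also named (mean CPM of at least 1 in each table, no predicted genes). For Pdpr so were the 5 over the 17 libraries outside the table that chose it, and the 3 nearest tested neighbours on each side. Tests were checked on counts drawn with known fold changes. Alternatives were other normalizations, no filter, each library left out, a replicate block and all barcodes. An interaction term in 1 edgeR fit over stripped aorta and fibroblasts, and the neuronal list, were added after seeing the data.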

Additional observations from a re-analysis of the deposited data

Results flagged for a closer look

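In stripped Cre aorta, Pdk4 of replicate 3 stood apart from the other three libraries, at 104 CPM against 48.4 to 54.97. Its gap to the nearest library was 0.881 of the group's range. The same library held the most heart muscle RNA of the table, with cardiac markers summing to 135, 137, 4604 and 779 CPM in Cre replicates 1 to 4. Cre replicate 4, next in these markers, had 50.9 CPM of Pdk4. In TKO the library with fewer (78.7 against 279 CPM) had more Pdk4 (234 against 125 CPM). The part of heart RNA was not tested. Pdk4 was the 1 flagged of 10 members checked in stripped Cre, the only group of at least 4 libraries, and chance alone marks about 1 group in 20. Without that library the Pdk4 log2 fold change was 1.80 (edgeR adjusted p = 0.188). Over all 6 libraries left out in turn it ran from 0.96 to 1.86, lowest without TKO replicate 2.

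Pdp2 was higher in TKO in stripped aorta and lower in isolated fibroblasts, and Pdk3 the reverse, with no overlap between groups in either table. The difference of the log2 fold changes, fibroblasts minus stripped aorta, was −0.68 ± 0.29 for Pdp2 (edgeR adjusted p = 0.286) and 0.52 ± 0.15 for Pdk3 (adjusted p = 0.142), in a fit over 12 libraries. Neither passed the test, in which 16 of 17977 genes did and 2746 were at an unadjusted p under 0.05.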

How the results depend on the processing

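The count of called members in fibroblasts, in the single-cell sums and in the single-cell classes was 0 under every alternative run. With the number in the labels as a replicate block, 0 members were called in the single-cell sums and 0 within the classes, as without it. The labels tie the numbers to no shared animal or batch, and over genes the deviations of same-numbered libraries correlated at r = 0.39. In stripped aorta DESeq2 called 3 members. In the anti-IL-9 table DESeq2 and the fit without a filter each called 8 members in place of 4, and leaving out 1 library gave 1 to 8. In non-stripped aorta leaving out 1 library gave 0 to 1, the 1 being Pdpr, the gene that chose the group, and nothing is read from it. Counts over all genes moved more: DESeq2 called 802, 538, 417 and 5588 genes in the non-stripped, stripped, fibroblast and anti-IL-9 tables in place of 18, 4, 10 and 5277, and without a filter 766, 64, 682 and 6768 were called. The cause was not tested. With RLE factors they were 18, 4, 10 and 5330, and without 1 library 0 to 486, 0 to 30, 3 to 10 and 3516 to 4793.

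Directions that turned when 1 library was left out all belonged to members that were not called. Log2 fold changes then ran as follows in non-stripped aorta, as a description: Pdha1 −0.04 to 0.085, Pdk2 −0.081 to 0.047, Pdk3 −0.041 to 0.35 and Pdk4 −0.19 to 0.19. In stripped aorta it was Pdp1 −0.13 to 0.27. In fibroblasts they were Pdk1 −0.11 to 0.22, Pdhb −0.082 to 0.013, Pdp1 −0.026 to 0.067 and Pdk2 −0.049 to 0.41. In the single-cell sums they were Pdpr −0.47 to 0.29, Pdk1 −0.22 to 0.57, Pdp1 −0.11 to 0.34, Pdk4 −1.34 to 0.74, Pdha1 −0.44 to 0.14, Pdhb −0.52 to 0.18 and Dlat −0.39 to 0.068. Over all deposited barcodes Pdk1 turned to −0.047. The 80 mean levels moved by less than 1 SD without TMM factors. The cause of the other changes was not tested beyond the smaller number of libraries, and 2 libraries in the smaller groups limit what these tests can show.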
